A study of Mus musculus with 10 samples.

Results

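The regulatory T cell identity and suppression genes were chosen by symbol: Foxp3, Ikzf2, Ikzf4, Lrrc32, Il10, Ebi3, Gpr83, Nrp1, Entpd1 and Nt5e. All probe sets that the platform annotation assigns to exactly 1 of these symbols were taken, which gave 21 probe sets of 9 genes out of 45101 probe sets on the array. Lrrc32, the docking receptor for latent TGF-β, was not analysed here. Expression was measured in 5 tumors labelled Bach2-deficient and in 5 wild-type (WT) tumors with 1-colour Affymetrix arrays. Both groups were B16 tumors on the C57BL/6 background; B16 is a transplantable mouse melanoma line. Whole tumors were mechanically dissociated before total RNA was extracted, so that each value mixes RNA of melanoma cells, lymphocytes, myeloid cells and stroma. The study's design text speaks of Bach2-deficient mice; the labels do not give the allele, the age or the sex of the hosts, nor whether each tumor grew in an animal of its own. The p-values therefore measure only the spread between these samples, which may be technical.

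Regulatory T cells are CD4 T cells that restrain other immune cells, and their identity rests on the transcription factor Foxp3. The Ikaros family factors Helios (Ikzf2) and Eos (Ikzf4) act with Foxp3 to maintain the regulatory programme. Suppression is carried out in part by secreted cytokines, among them interleukin-10 (Il10) and, through the subunit Ebi3, interleukin-35, and in part by the ectoenzymes CD39 (Entpd1) and CD73 (Nt5e), which in sequence turn extracellular ATP into adenosine. Neuropilin-1 (Nrp1) and the receptor Gpr83 are surface proteins enriched on mouse regulatory T cells. Of these genes, Foxp3 is the most restricted to regulatory T cells; Il10, Ebi3, Entpd1, Nt5e and Nrp1 are also expressed by other T cells, myeloid cells, B cells or endothelium.

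Bach2, a transcriptional repressor of lymphocytes, was read by 3 probe sets. The brightest, 1445460_at, averaged 5.89 ± 0.55 in Bach2-deficient and 6.96 ± 0.76 in WT tumors (log2, mean ± SD, n = 5 each) and did not pass (difference -1.07, limma adjusted p = 0.0695). Probe set 1436515_at fell by 1.05 (adjusted p = 0.0382), and 1437667_a_at differed by -0.35 (adjusted p = 0.381). On all 3 the groups overlapped. The deleted part of the gene is not given, and a probe set outside it checks nothing. Several features of the arrays differed between the groups. The poly-A control probe sets, which read spiked-in transcripts, ran from 9.93 to 10.2 on the Bach2-deficient arrays and from 11.9 to 12.4 on the WT arrays. These ranges do not overlap, so a technical difference between the groups cannot be told apart from genotype. Its part in the differences given below was not tested. Xist, the RNA of the inactive X chromosome in females, was at 11.9 on Bach2-deficient replicate 2, between 4.76 and 6.61 on the other Bach2-deficient arrays, and between 11.4 and 12.2 on the WT arrays. The number of arrays limits the precision, and the array medians all lay between 5.80 and 5.88.

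On their brightest probe sets the suppressive molecules rose in the Bach2-deficient tumors by 1.76 to 2.79 on the log2 scale, and the lineage factors Foxp3 and Ikzf2 by 0.80 and 0.92. Ikzf4, Gpr83 and Nrp1 did not pass the test on theirs (0.43, -0.21 and 0.15). Of the 21 probe sets, 10 rose and 0 fell at a limma adjusted p under 0.05; over all 45037 probe sets tested, 11.9% rose and 8.87% fell, 20.8% in either direction. The median log2 difference, Bach2-deficient minus WT, was 0.80 over the 21 probe sets and -0.07 over all probe sets. Of the 8 probe sets of the suppressive molecules Il10, Ebi3, Entpd1 and Nt5e, 7 rose, with a median difference of 1.94. Of the 7 probe sets of the lineage factors Foxp3, Ikzf2 and Ikzf4, 2 rose, with a median of 0.80. Of the 6 probe sets of Gpr83 and Nrp1, 1 rose, with a median of 0.18. These counts share arrays and, within a gene, a transcript. The Bach2-deficient values lay wholly above the WT values for 5 of the 21 probe sets, against 8.65% of all probe sets, and wholly below them for 0, against 6.62%. In a bulk tumor sample, more cells of a type and more RNA per cell cannot be told apart.

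Of these 10 calls, 1 was kept when the fit held a term that parts arrays of high Xist from those of low Xist, and 1 with the mean of the melanocyte markers as a covariate. With 1 array left out, 8 to 12 of the 21 probe sets passed. In the fit with the Xist term the difference between the groups is, by its construction, that of Bach2-deficient replicate 2 from the WT mean, with that lone sample assumed to vary like the others. Foxp3 rose there by 1.34 (adjusted p = 0.0328). On their brightest probe sets Il10 differed there by 1.64, Ebi3 by 2.48, Entpd1 by 2.98 and Nt5e by 2.33 (adjusted p from 0.102 to 0.353). With the melanocyte covariate the same probe sets differed by 1.82 for Il10, 1.52 for Ebi3, 2.34 for Entpd1 and 1.48 for Nt5e (adjusted p from 0.146 to 0.195).

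**Figure D1:**
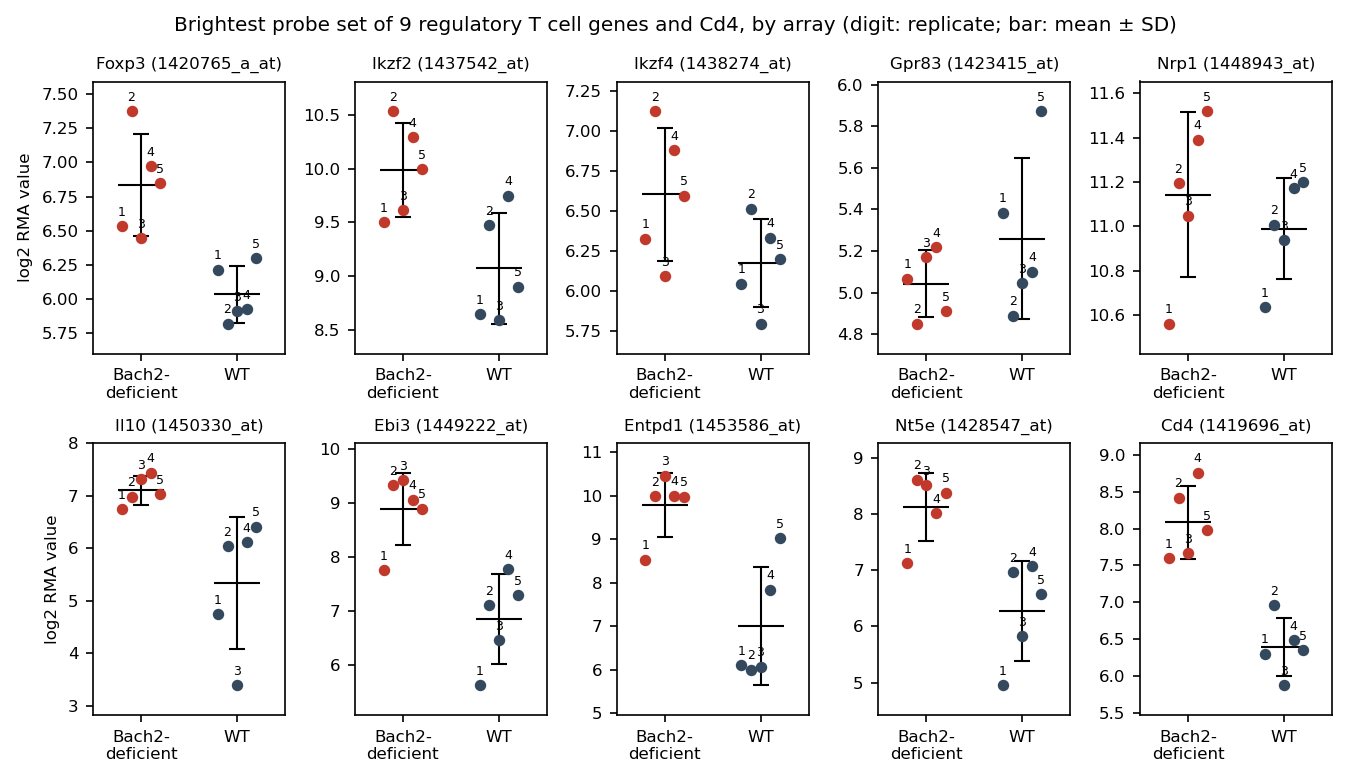
Log2 RMA values (vertical axes, each with its own range) of the brightest probe set of each of the 9 genes and of Cd4 on the 5 Bach2-deficient (red) and 5 WT (dark) arrays; digits are replicate numbers, and bars show the mean ± SD. The Bach2-deficient values lie wholly above the WT values for Foxp3, Il10, Nt5e and Cd4, and the WT values of Il10 and Entpd1 are widely spread.

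Foxp3, the lineage factor, was read by the single probe set 1420765_a_at. It was at 6.53, 7.37, 6.45, 6.97 and 6.85 in the Bach2-deficient tumors and at 6.22, 5.82, 5.91, 5.93 and 6.30 in the WT tumors (log2, replicates 1 to 5). All 5 Bach2-deficient values lay above all WT values, although the gap between the lowest Bach2-deficient and the highest WT tumor was small. Foxp3 rose by 0.80 (SE 0.18, 95% interval 0.39 to 1.21), or 1.74-fold (limma adjusted p = 0.0127). The call was lost with the melanocyte covariate (0.57, adjusted p = 0.191) and with no other alternative (adjusted p over the alternatives 0.0078 to 0.191).

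Helios (Ikzf2) was read by 3 probe sets. The brightest, 1437542_at, was at 9.50, 10.53, 9.61, 10.30 and 9.99 in the Bach2-deficient tumors and at 8.65, 9.47, 8.59, 9.75 and 8.90 in the WT tumors. The groups overlapped, with WT replicate 4 above Bach2-deficient replicates 1 and 3. The probe set rose by 0.92 (SE 0.28, 1.89-fold, limma adjusted p = 0.0403). The call was lost without Bach2-deficient replicate 2, 4 or 5 and without WT replicate 1, 3 or 5, with quantile normalization repeated and with both covariates. Over all alternatives the difference ran from 0.59 to 1.46 and the adjusted p from 0.0050 to 0.347. Probe set 1456956_at differed by a similar 0.80 and did not pass (adjusted p = 0.0574). The third, 1421643_at, averaged 4.83 ± 0.10 in Bach2-deficient and 4.77 ± 0.42 in WT tumors, a difference of 0.06 with a 95% interval of -0.35 to 0.47.

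Eos (Ikzf4) did not pass on any of its 3 probe sets. The brightest, 1438274_at, was at 6.33, 7.12, 6.09, 6.88 and 6.60 in the Bach2-deficient tumors and at 6.05, 6.51, 5.80, 6.33 and 6.20 in the WT tumors. The groups overlapped, and the difference was 0.43 (95% interval -0.04 to 0.89, limma adjusted p = 0.170). Probe set 1457342_at differed by 0.97 (interval 0.26 to 1.67, adjusted p = 0.0545) and passed in 5 of 18 alternatives, such as without WT replicate 4 (1.21, adjusted p = 0.0101; range over the alternatives 0.0101 to 0.416). The dim probe set 1460664_at, with both means under the level of 4.55 that bounds the dimmest 30% of probe sets, differed by -0.06.

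The surface proteins gave no uniform picture. Gpr83 was at 5.07, 4.85, 5.17, 5.22 and 4.91 in the Bach2-deficient tumors and at 5.38, 4.89, 5.04, 5.10 and 5.87 in the WT tumors on its brighter probe set, 1423415_at. The groups overlapped throughout, and the difference of -0.21 had a 95% interval of -0.61 to 0.18 (limma adjusted p = 0.415). Its other probe set, 1439569_at, was dim in both groups and differed by 0.16.

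Nrp1, a co-receptor for semaphorins and VEGF that endothelial and tumor cells also carry, was bright in every tumor. Its brightest probe set, 1448943_at, was at 10.56, 11.19, 11.05, 11.39 and 11.52 in the Bach2-deficient tumors and at 10.64, 11.01, 10.94, 11.17 and 11.20 in the WT tumors. The groups overlapped, and the difference of 0.15 had a 95% interval of -0.26 to 0.57. Of the 4 probe sets of Nrp1, 1418084_at alone rose, by 0.61 (SE 0.14, limma adjusted p = 0.0112), with averages of 8.28 ± 0.13 in Bach2-deficient and 7.67 ± 0.26 in WT tumors. The other 3 differed by 0.15 to 0.23. Among 7 endothelial markers, 1 rose (Pecam1, 2.00, a gene that leukocytes also express) and 2 fell, and their mean ran from 4.60 to 5.28 in Bach2-deficient and from 4.83 to 5.15 in WT tumors.

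Il10, which encodes a cytokine that dampens antigen-presenting cells, was read by 1450330_at. It was at 6.74, 6.98, 7.32, 7.44 and 7.03 in the Bach2-deficient tumors and at 4.75, 6.04, 3.40, 6.11 and 6.41 in the WT tumors. The Bach2-deficient values were close together and lay above all WT values, and the WT values spread widely, with replicates 1 and 3 far below the others. Il10 rose by 1.76 (SE 0.51, 95% interval 0.62 to 2.90), or 3.39-fold (limma adjusted p = 0.0358). The call was lost without Bach2-deficient replicate 2, 3, 4 or 5, without WT replicate 1 and with both covariates. Over all alternatives the difference ran from 1.28 to 2.03 and the adjusted p from 0.0119 to 0.353.

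Ebi3, a subunit shared by interleukin-35 and interleukin-27, was read by 1449222_at. It was at 7.75, 9.32, 9.41, 9.05 and 8.89 in the Bach2-deficient tumors and at 5.62, 7.10, 6.46, 7.77 and 7.29 in the WT tumors. Bach2-deficient replicate 1 was level with the highest WT tumor, replicate 4, and the other Bach2-deficient tumors were higher. Ebi3 rose by 2.04 (SE 0.43), or 4.10-fold (limma adjusted p = 0.0085). Of the partners of Ebi3, Il12a, the other chain of interleukin-35, averaged 5.21 in Bach2-deficient and 5.17 in WT tumors, a difference of 0.04 (adjusted p = 0.910). Il27, the other chain of interleukin-27, was not analysed here.

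CD39 (Entpd1), which hydrolyses ATP and ADP to AMP, rose on all 3 of its probe sets. The brightest, 1453586_at, was at 8.52, 9.99, 10.46, 10.003 and 9.98 in the Bach2-deficient tumors and at 6.10, 6.00, 6.07, 7.84 and 9.02 in the WT tumors. WT replicates 4 and 5 stood above the other WT tumors, and WT replicate 5 exceeded Bach2-deficient replicate 1. This probe set rose by 2.79 (SE 0.62, limma adjusted p = 0.0110). Probe sets 1450939_at and 1423326_at, on which the groups did not overlap, rose by 2.78 (SE 0.42, adjusted p = 0.0019) and by 2.53 (SE 0.42, adjusted p = 0.0028). In fold terms the rises were 6.90, 6.87 and 5.79. Macrophages also carry CD39. Of 8 macrophage markers, 7 rose, and their mean ran from 11.5 to 12.2 in Bach2-deficient and from 10.1 to 11.2 in WT tumors, with its highest WT values on replicates 4 and 5; its part in the rise of Entpd1 was not tested.

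CD73 (Nt5e), which turns AMP into adenosine, was read by 3 probe sets that differed among themselves. The brightest, 1428547_at, was at 7.12, 8.61, 8.51, 8.01 and 8.38 in the Bach2-deficient tumors and at 4.96, 6.96, 5.83, 7.07 and 6.57 in the WT tumors. The groups did not overlap, by a margin of 1 close pair, Bach2-deficient replicate 1 and WT replicate 4. This probe set rose by 1.85 (SE 0.43), or 3.60-fold (limma adjusted p = 0.0137). Probe set 1422974_at rose by 0.91 (adjusted p = 0.0153), a size that is not exact because its WT mean of 3.68 lay under 4.55. The third, 1459023_at, averaged 5.36 ± 0.07 in Bach2-deficient and 5.45 ± 0.14 in WT tumors, a difference of -0.10 with a 95% interval of -0.31 to 0.11. As the mean of its 3 probe sets Nt5e rose by 0.89.

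The order of the tumors recurred across several of the genes. On 8 of the 10 probe sets that rose, Bach2-deficient replicate 1 was the lowest of its group. These were of Ikzf2, Il10, Ebi3, Entpd1 (3 probe sets) and Nt5e (2). On Foxp3 and Nrp1 probe set 1418084_at, replicate 3 was the lowest. On 6 of the 10, WT replicate 5 was the highest of its group, namely on Foxp3, Il10, Entpd1 (3 probe sets) and Nt5e. Probe sets of the same gene on the same array are not separate recurrences. The mean of 9 T cell markers was likewise lowest in its group on Bach2-deficient replicate 1, at 9.19. The other Bach2-deficient tumors ran from 9.71 to 10.52 and the WT tumors from 6.05 to 7.81, with the highest on replicate 4 and 7.66 on replicate 5. All 9 of these markers rose. The marker means of CD8 T cells, macrophages, dendritic cells, B cells, NK cells and endothelial cells were also lowest on Bach2-deficient replicate 1. That of fibroblasts was lowest on replicate 2, at 6.66, with replicate 1 close to it at 6.68. The macrophage mean was highest among WT tumors on replicate 5, at 11.2. The mean of 7 melanocyte markers was 12.92 on Bach2-deficient replicate 1, 12.19 to 12.57 on the other Bach2-deficient arrays and 12.67 to 12.84 on the WT arrays. The part of cell content in the rises was not tested beyond the covariate fit above.

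**Figure D2:**
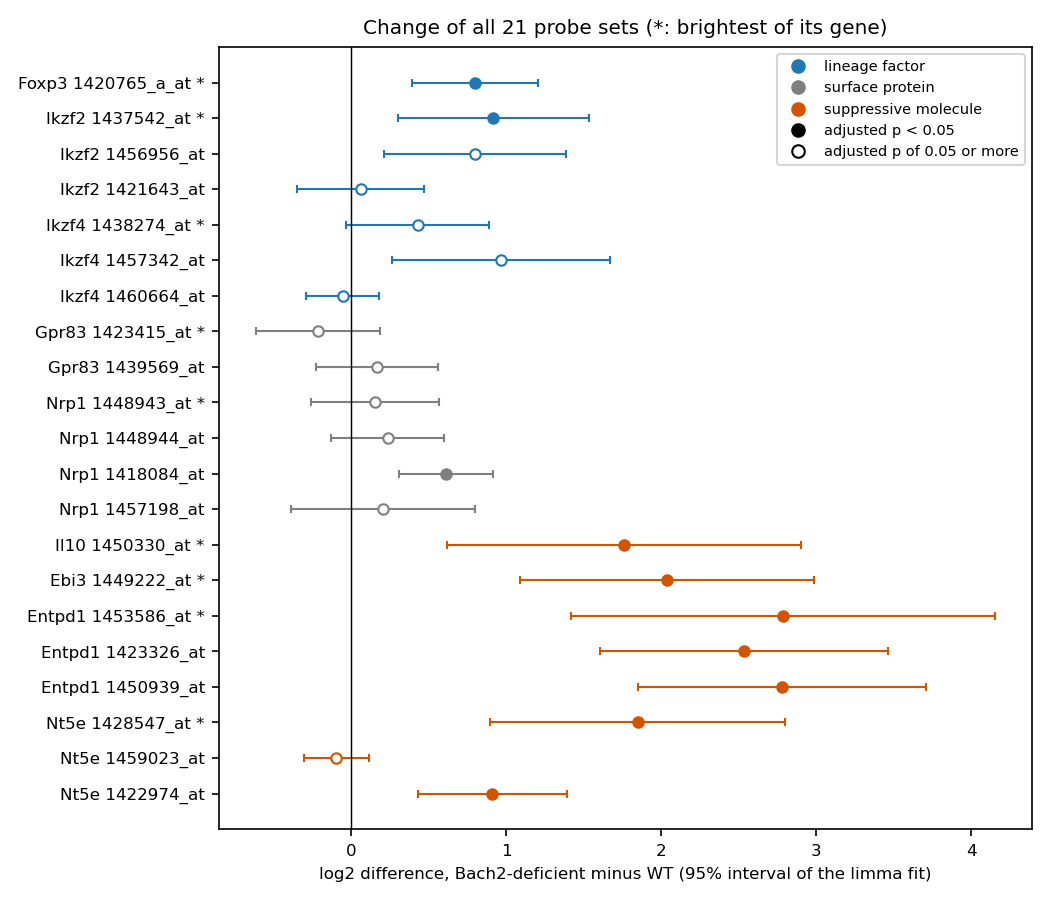
Log2 difference, Bach2-deficient minus WT (horizontal axis), of all 21 probe sets with the 95% interval of the limma fit, coloured by role; filled points passed an adjusted p of 0.05. The 3 Entpd1 probe sets stand together between 2.53 and 2.79, while the 3 of Nt5e run from -0.10 to 1.85.

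The start-site windows of the genes were searched for letters bound by factors of this pathway, whether or not the gene rose. RefSeq (GRCm38.p6) gave 8 windows of 300 bases for 6 of the genes, namely Foxp3, Ebi3, Gpr83, Nrp1, Entpd1 and Nt5e, each from 250 bases before to 50 after a start. The searched letters were TGANTCA, the core shared by AP-1 and BACH2, which reads the same on both strands; TTCNNNGAA, a STAT core, which also reads the same on both strands; and GTAAACA, a forkhead core, on both strands. TGANTCA was in 0 of the 8 windows and in 7.81% of the 32851 windows of all genes. TTCNNNGAA was in 1 of the 8 windows, a window of Foxp3, and in 8.30% of all windows, and GTAAACA was in 0 of the 8 and in 3.65% of all. These are matches of letters in short windows, and no match says only that the letters are not there. The windows of Foxp3 (the one with the match), Ebi3, Entpd1 (the first of its starts) and Nt5e are shown because these genes rose; capitals mark the STAT core, which begins at -139 counted from the start. All are on the plus strand, at chrX:7580233-7580532, chr17:55952373-55952672, chr19:40612116-40612415 and chr9:88327359-88327658.
Foxp3: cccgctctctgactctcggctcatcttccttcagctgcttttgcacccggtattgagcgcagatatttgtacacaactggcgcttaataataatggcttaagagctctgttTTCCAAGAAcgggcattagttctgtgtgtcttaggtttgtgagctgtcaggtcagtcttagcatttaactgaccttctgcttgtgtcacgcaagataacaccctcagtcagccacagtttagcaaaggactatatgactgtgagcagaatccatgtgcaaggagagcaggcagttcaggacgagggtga
Ebi3: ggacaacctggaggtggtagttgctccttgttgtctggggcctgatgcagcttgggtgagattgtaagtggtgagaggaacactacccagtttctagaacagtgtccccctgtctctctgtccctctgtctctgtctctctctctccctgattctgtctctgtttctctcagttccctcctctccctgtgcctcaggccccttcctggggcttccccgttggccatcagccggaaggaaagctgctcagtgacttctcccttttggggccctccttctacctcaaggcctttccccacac
Entpd1: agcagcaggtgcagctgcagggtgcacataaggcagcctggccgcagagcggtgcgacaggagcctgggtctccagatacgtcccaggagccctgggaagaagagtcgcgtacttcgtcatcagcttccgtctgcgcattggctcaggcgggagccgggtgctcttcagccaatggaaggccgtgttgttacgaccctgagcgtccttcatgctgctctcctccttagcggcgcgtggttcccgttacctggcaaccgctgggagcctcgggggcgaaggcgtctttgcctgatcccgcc
Nt5e: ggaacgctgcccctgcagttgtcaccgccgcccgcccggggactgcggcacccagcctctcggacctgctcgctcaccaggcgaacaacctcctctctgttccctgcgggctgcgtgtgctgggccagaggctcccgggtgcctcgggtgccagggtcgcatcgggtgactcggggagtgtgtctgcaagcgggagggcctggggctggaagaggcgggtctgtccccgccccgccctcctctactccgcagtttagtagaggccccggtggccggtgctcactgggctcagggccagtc

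Cd4, the co-receptor of the T cell lineage to which regulatory T cells belong, served as the measure of CD4 T cell RNA, although some dendritic cells and macrophages can express it too. Its brightest probe set, 1419696_at, was at 7.60, 8.42, 7.67, 8.76 and 7.98 in the Bach2-deficient tumors and at 6.30, 6.96, 5.87, 6.48 and 6.35 in the WT tumors, a rise of 1.69 (SE 0.26, limma adjusted p = 0.0020). The groups did not overlap. The other Cd4 probe set, 1427779_a_at, was dim in both groups and rose by 0.68 (SE 0.19, limma adjusted p = 0.0271). The brightest was the one subtracted unless stated, and the size of each change relative to Cd4 depends on that choice. Subtracting Cd4 on each array asks whether a gene changed by another amount than Cd4; the absolute size of such a difference has no meaning between probe sets, and the change in it does. Because Cd4 rose, 92.4% of all 45036 probe sets fell and 1.02% rose relative to Cd4 at an adjusted p under 0.05, 93.4% in either direction. Of the 21 probe sets, 14 fell and 3 rose relative to Cd4. The median difference after subtraction was -0.90 for them and -1.77 over all probe sets.

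The lineage factors fell relative to Cd4 on their brightest probe sets, each by less than the median change of -1.77 over all probe sets. As 92.4% of all probe sets fell relative to Cd4, these falls show no loss particular to the lineage factors. Foxp3 minus Cd4 was at -1.06, -1.05, -1.22, -1.79 and -1.13 in the Bach2-deficient tumors and at -0.08, -1.14, 0.04, -0.56 and -0.05 in the WT tumors. WT replicate 2 lay within the Bach2-deficient range and the other WT tumors above it. The change was -0.89 (SE 0.36, 95% interval -1.61 to -0.18, limma adjusted p = 0.0171). It did not pass without WT replicate 1 or 5, with the Xist term, with the melanocyte covariate, or with the mean of both Cd4 probe sets subtracted (-0.39, adjusted p = 0.167; range over the alternatives 6.3e-05 to 0.321). The Ikzf2 value changed by -0.78 (limma adjusted p = 0.0330) and that of Ikzf4 by -1.27 (adjusted p = 0.0007). In both, all Bach2-deficient tumors lay below all WT tumors. The same held for both Gpr83 probe sets and for Nt5e probe set 1459023_at, which by itself differed by -0.10. It also held for Nrp1 probe sets 1448943_at, 1448944_at and 1457198_at, Ikzf2 probe set 1421643_at and Ikzf4 probe set 1460664_at. The share of all probe sets that part the groups in this way relative to Cd4 was not counted. The Ikzf2 call was lost without Bach2-deficient replicate 3 or 5 and without WT replicate 4 or 5, with both covariates and with the mean of both Cd4 probe sets (-0.27; adjusted p over the alternatives 0.0002 to 0.414). Gpr83 changed by -1.91 and Nrp1 by -1.54 relative to Cd4, calls that held in all 20 alternatives. By themselves these probe sets differed by -0.21 and 0.15 and did not pass. Their changes relative to Cd4 lay near the median of -1.77 over all probe sets. These calls therefore mostly restate the rise of Cd4 and show no loss particular to Gpr83 or Nrp1.

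None of the suppressive molecules fell relative to Cd4 on its brightest probe set, while the other 2 probe sets of Nt5e did (-0.78 and -1.79). Il10 changed by 0.07 relative to Cd4 (95% interval -0.72 to 0.86), Nt5e by 0.16 (-0.61 to 0.92) and Ebi3 by 0.34 (-0.43 to 1.11) on their brightest probe sets, and none of these passed. Ebi3 passed with the mean of both Cd4 probe sets subtracted (0.85, adjusted p = 0.0309; range over the alternatives 0.0309 to 0.887). Relative to the mean of the T cell markers in place of Cd4 all 3 lay below 0: Il10 fell by 0.99 (adjusted p = 0.0421; range over the alternatives 0.0421 to 0.930), and Nt5e and Ebi3 did not pass (-0.90 and -0.72). Entpd1 alone rose relative to Cd4, by 1.09 on its brightest probe set (SE 0.44, interval 0.20 to 1.98, limma adjusted p = 0.0190) and by 0.84 and 1.09 on the others (adjusted p = 0.0399 and 0.0091). Without Bach2-deficient replicate 3, none of the 3 passed (0 probe sets rose relative to Cd4), and without WT replicate 2 only 1 did. The brightest probe set did not pass without Bach2-deficient replicate 3 (0.82) or WT replicate 2 (0.70), with array weights (0.75), the Xist term or the melanocyte covariate, and it changed by 0.03 relative to the mean of the T cell markers (adjusted p over the alternatives 0.0002 to 0.946).

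**Figure D3:**
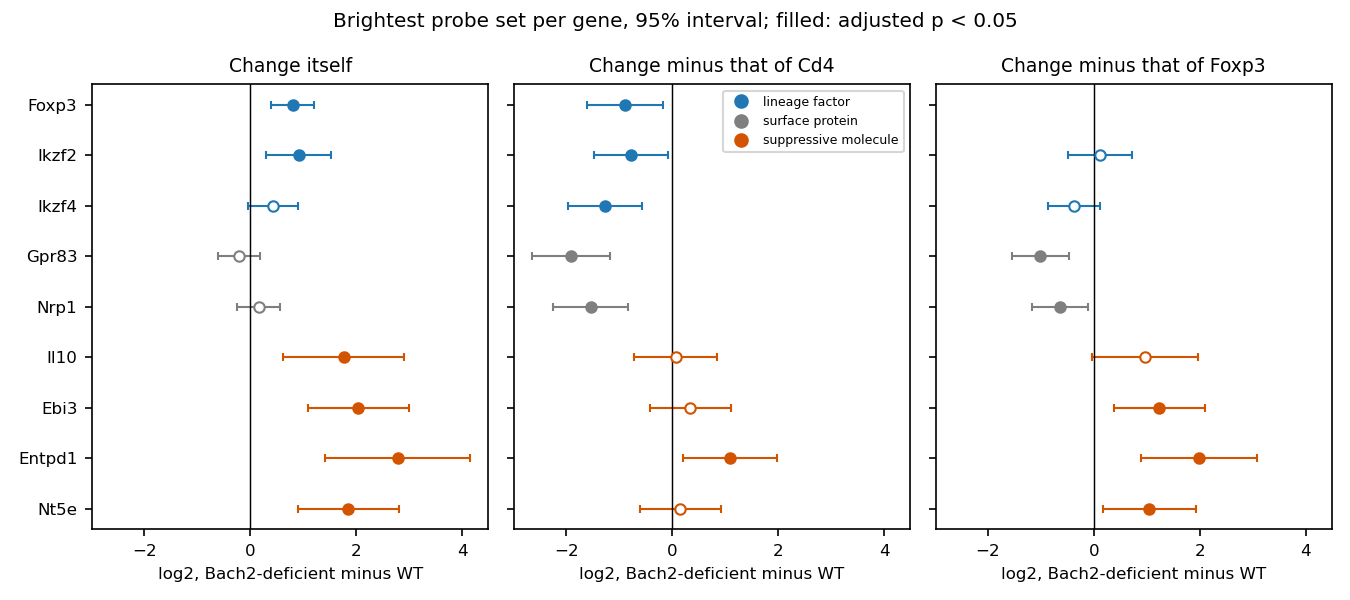
Log2 difference, Bach2-deficient minus WT, of the brightest probe set of each gene by itself (left), after subtracting Cd4 (middle) and after subtracting Foxp3 (right), with 95% intervals on a shared axis; filled points passed an adjusted p of 0.05. Relative to Cd4 the lineage factors and surface proteins lie below 0 and the suppressive molecules at or above it. The median over all probe sets is -1.77 relative to Cd4 and -0.87 relative to Foxp3, so 0 does not mark an unchanged gene there.

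With Foxp3 subtracted on each array, the suppressive molecules could be set against the lineage factor itself. Since Foxp3 rose, 70.9% of all other probe sets fell and 3.50% rose relative to it, 74.4% in either direction; of the 20 probe sets of the remaining genes, 7 fell and 5 rose. Entpd1 rose relative to Foxp3 by 1.99 on its brightest probe set (SE 0.51, limma adjusted p = 0.0044). Ebi3 rose relative to Foxp3 by 1.24 (SE 0.41, adjusted p = 0.0136) and the brightest Nt5e probe set by 1.05 (SE 0.42, adjusted p = 0.0331). None of the 3 passed with the Xist term, where they differed by 1.64, 1.14 and 0.99 in the same order, or with the melanocyte covariate, where they differed by 1.77, 0.95 and 0.91 (adjusted p from 0.0880 to 0.262). Ebi3 minus Foxp3 was at 1.22, 1.95, 2.97, 2.08 and 2.04 in the Bach2-deficient tumors and at -0.59, 1.28, 0.55, 1.85 and 0.99 in the WT tumors, so that Bach2-deficient replicate 1 lay within the WT range. The rise of Nt5e relative to Foxp3 was that of its brightest probe set alone. Probe set 1422974_at changed by 0.11 (limma adjusted p = 0.688) and 1459023_at by -0.90 (adjusted p = 0.0058). Il10 changed by 0.96 relative to Foxp3 (95% interval -0.04 to 1.96, adjusted p = 0.0746) and passed in 5 of 18 alternatives, such as without WT replicate 2, 4 or 5 (adjusted p over the alternatives 0.0116 to 0.754). The Nt5e call was also lost without Bach2-deficient replicate 2, 3 or 5 and without WT replicate 1 or 3 (adjusted p over the alternatives 0.0044 to 0.262).

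The other lineage factors did not pass relative to Foxp3 on their brightest probe sets. Ikzf2 changed by 0.12 relative to Foxp3 (95% interval -0.49 to 0.72) and Ikzf4 by -0.37 (-0.86 to 0.11). Ikzf2 minus Foxp3 stayed between 2.97 and 3.32 in the Bach2-deficient tumors and ran from 2.43 to 3.82 in the WT tumors. Gpr83 fell relative to Foxp3 by 1.01 (limma adjusted p = 0.0039), where the median over all probe sets was -0.87. All Bach2-deficient values lay below all WT values, as they did for Gpr83 probe set 1439569_at, Ikzf4 probe set 1460664_at and Nt5e probe set 1459023_at. The share of all probe sets that do so relative to Foxp3 was not counted. The Gpr83 call was lost with the melanocyte covariate (-0.77, adjusted p = 0.0891, range over the alternatives 7.2e-05 to 0.0891). Of the Nrp1 probe sets, 1448944_at changed by -0.57 relative to Foxp3 (limma adjusted p = 0.0338), and 1418084_at (-0.19) and 1457198_at (-0.60) did not pass. The brightest, 1448943_at, fell relative to Foxp3 by 0.65 (adjusted p = 0.0281), less than the median of -0.87 over all probe sets. This call was lost without Bach2-deficient replicate 1 or 2 and without WT replicate 2, 3 or 4, and with array weights or the melanocyte covariate. It passed in 10 of 18 alternatives (adjusted p 0.0146 to 0.116).

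Around these genes stand receptors, partners and further factors of the regulatory T cell programme. Of 43 such genes listed, 37 had a probe set of their own symbol, and on their brightest probe sets 25 rose and 2 fell, with a median of 1.57. Over the brightest probe sets of all 18193 genes, 14.9% rose and 10.6% fell, with a median of -0.06. The list was chosen with earlier results of these data known, so this contrast is a description and no independent support. The largest rises were those of Il2rb, the β chain of the interleukin-2 and interleukin-15 receptors (4.19), Ikzf3, the Ikaros family factor Aiolos (4.03), Prdm1, which encodes Blimp-1 (3.37), Il10ra, the ligand-binding chain of the interleukin-10 receptor (3.09), and the costimulatory receptor gene Icos (2.96). These genes are expressed by effector T or NK cells too; of 2 NK cell markers both rose, as did both CD8 chains, by 4.23 and 4.71. Plxna1, a plexin that works with neuropilin-1 (-0.85), and Sema3a, a semaphorin ligand of neuropilin-1 (-0.98), fell, and in both the groups did not overlap. With the Xist term 10 of the 37 genes passed and with the melanocyte covariate 12, all of them rises, so that the falls of Plxna1 and Sema3a were lost under both.

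The direct partners of the suppressive molecules moved unevenly. Il10ra averaged 8.34 in Bach2-deficient and 5.25 in WT tumors (limma adjusted p = 0.0003), while Il10rb, the second receptor chain, averaged 9.44 and 9.14 in the same order of groups and did not pass (0.29, adjusted p = 0.131). Tgfb1, whose latent product is displayed on regulatory T cells, rose by 2.59 (SE 0.30). Nrros, which displays latent TGF-β on myeloid cells, rose by 2.04 (SE 0.27). The adenosine receptor genes Adora2a and Adora2b were not analysed here. Ctla4, an inhibitory receptor that regulatory T cells carry at high level, rose by 1.77, and Il2ra, the high-affinity chain of the interleukin-2 receptor, by 2.18. Both were named after their values were seen. Relative to Cd4 neither passed (0.08 and 0.49, limma adjusted p = 0.835 and 0.253). On the same list, where 25 of 37 genes rose, Ccr8 and Ccr4 did not pass (0.66 and 0.08). Their WT means of 4.09 and 3.06 were dim.

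**Figure D4:**
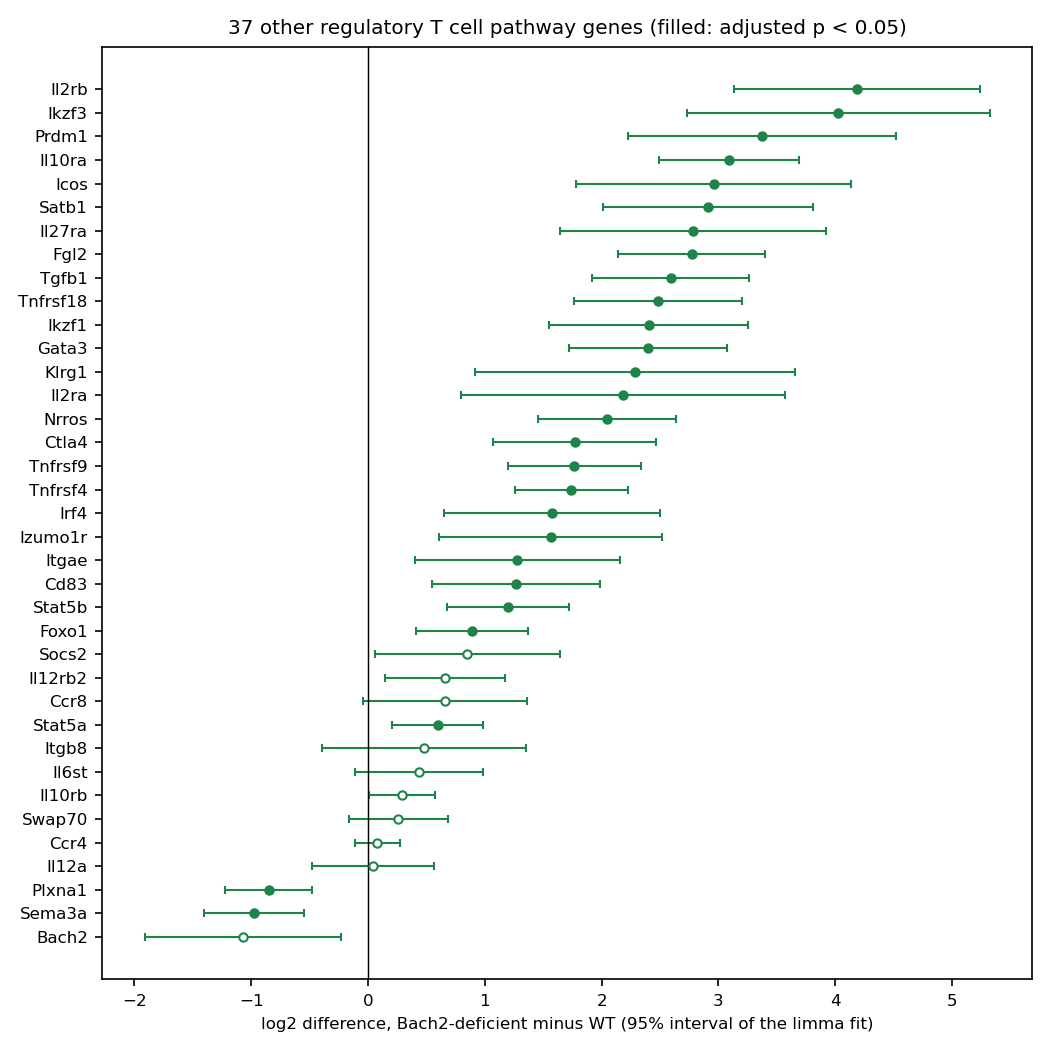
Log2 difference, Bach2-deficient minus WT (horizontal axis), of 37 other genes of the pathway on their brightest probe set, with 95% intervals, ordered by size; filled points passed an adjusted p of 0.05. The list runs from 4.19 for Il2rb to -1.07 for Bach2.

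The genes whose profiles were most like those of the members were found by the root mean square difference between mean-subtracted log2 values over the 10 arrays, among 13894 genes. For Foxp3 they were Qprt (0.16), Glg1 (0.16), Itpk1 (0.17), Gabpb2 (0.17) and Mlxip (0.18), where the median gene was at 0.58. For Il10 they were Vcam1 (0.38), Izumo1r (0.41), Fry (0.44), Pag1 (0.45) and Zswim6 (0.45), against a median of 1.23. For Ebi3 they were Fam107b (0.23), Nt5e (0.23), Rassf5 (0.23), Arhgef6 (0.24) and Cd300ld (0.25), against a median of 1.26. One suppressive molecule, Nt5e, was thus among the 5 genes nearest to another, Ebi3. The arrays share genotype and cell content, so likeness over them is a description.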

How the data were processed

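RNA was measured on 1-colour Affymetrix arrays, 5 Bach2-deficient and 5 WT. The deposited table holds log2 values; per the submitters' processing notes the authors used RMA and Partek, with versions not given in the sources used here, and the log2 scale was read from the values (1.99 to 14.4). RMA normalizes across arrays, so a change is relative to the bulk of genes, and it shrinks changes of dim probe sets. No detection calls were used. Groups came from the sample titles. All 45037 non-control probe sets entered 1 model per comparison in limma 3.58.1 (R 4.3.3, lmFit and eBayes, 2-sided; Benjamini-Hochberg over all of them), by themselves and with the brightest Cd4 or Foxp3 probe set subtracted. The fit was tested on simulated data. No 2 arrays were alike (mean absolute difference at least 0.215). The annotation gave 1 symbol for 34945 probe sets, several for 932 and none for 9160, and names were taken from single-symbol probe sets. Named were all members, the 5 largest rises and all falls of the pathway list, direct partners and the 5 nearest profiles; Ctla4 and Il2ra were added after their values were seen. Members and lists were chosen with earlier results of these data known. Alternatives changed the filter, moderation, weights, normalization, probe sets per gene, subtracted value, covariates and arrays.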

Additional observations from a re-analysis of the deposited data

Results flagged for a closer look

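In the 42 groups of 5 values (21 probe sets in 2 groups), 2 held a tumor far from the others of its group by Dixon's criterion, where chance gives about 1 in 20. On Entpd1 probe set 1453586_at, Bach2-deficient replicate 1 was at 8.52 and the next tumor at 9.98. On Nt5e probe set 1459023_at, which did not differ between the groups beyond its error, Bach2-deficient replicate 5 was at 5.48 and the next at 5.36.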

How the results depend on the processing

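Counts of called probe sets stayed within 1.5 times of the values reported under the dim filter, trended robust moderation, array weights, repeated quantile normalization, median centring and the replicate block. With the Xist term, which was chosen with the Xist values known, the counts were 1 of 21 probe sets by themselves, 9 relative to Cd4 and 7 relative to Foxp3, and 10 of the 37 pathway genes; with the melanocyte covariate they were 1, 9, 0 and 12. With 1 value per gene, 6 of 9 genes passed, both as the mean and as the brightest probe set. With 1 array left out the counts ran from 8 to 12, from 14 to 16, from 9 to 14 and from 20 to 29. The cause of the losses with the covariate was not tested. Replicate numbers are shared between the groups, and the labels give no pairing. Correlations of deviations between same-numbered tumors ran from 0.0040 to 0.244, against -0.197 to 0.244 over all pairs, and 2 of 5 were closest to their own number. These values do not settle whether same-numbered tumors were handled together, and the main fits did not pair them. With the replicate block 13, 18 and 10 probe sets and 29 pathway genes passed. Under it Ikzf4 probe sets 1438274_at and 1457342_at, Ikzf2 probe set 1456956_at and Il10 minus Foxp3 passed (adjusted p = 0.0355, 0.0469, 0.0333 and 0.0116), and Nrp1 minus Foxp3 did not (0.0570). Signs turned only in differences that had not passed; 1 of them passed after the turn, Il10 minus the T cell markers (adjusted p = 0.0421). Il10 minus Cd4 was -0.064 with array weights, -0.38 with the Xist term and -0.99 relative to the T cell markers, where Ebi3 was at -0.72 and Nt5e at -0.90; with 1 array left out Il10 minus Cd4 ran from -0.29 to 0.35 and Nt5e minus Cd4 from -0.15 to 0.35. Ikzf4 probe set 1460664_at was at 0.033 with repeated quantile normalization and 0.089 with the Xist term. With the melanocyte covariate Gpr83 probe set 1439569_at was at -0.092 and Nrp1 probe sets 1448943_at and 1448944_at at -0.11 and -0.014. With 1 array left out Ikzf2 minus Foxp3 ran from -0.035 to 0.31 and Ikzf2 probe set 1421643_at from -0.032 to 0.21. Foxp3 has a single probe set, so subtracting the mean of its probe sets was not run. Dim probe sets (under 4.55) carry no exact size of change.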
